A study of Drosophila melanogaster with 7 samples.

Results

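On 3 two-colour arrays, numbered 1.1, 1.2 and 1.3, salivary glands with cleaved cohesin were set against glands with an intact Rad21 from the genomic locus. They are 3 of the 7 arrays of the series, and they were chosen by their replicate numbers and by the labelled genotype of the intact sample. The glands came from crawling last-instar Drosophila melanogaster larvae. On each array the cleaved sample was Rad21ex15 Rad21(TEV)/Rad21ex3 and the intact sample was genomic Rad21/Rad21ex3, both in a w1118 background with hs-TEV/+. Every sample therefore carried hs-TEV, a heat-inducible gene for the TEV protease, an enzyme that cuts a short recognition sequence of its own, and every sample carried the Rad21ex3 allele. The cleavable Rad21 was also myc10-tagged. RNA was taken 10 to 12 h after a heat shock of 45 min at 37 °C, and the glands stayed at room temperature in between. The heat shock was shared by both samples of a pair, but the stocks differ in more than the TEV sites, so cleavage and stock cannot be told apart. The other 4 arrays, 2.1 to 2.4, had the same cleaved genotype against an intact Rad21 from a transgene (Rad21ex3 tgRad21/Rad21ex3 in the same background), and no sample was shared between arrays.

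Cohesin is a ring of SMC1, SMC3 and Rad21 that holds sister chromatids together and also shapes chromatin loops. Rad21 closes the ring, so cutting it opens the ring. The gland cells of late larvae no longer divide, their chromosomes are polytene, and they make glue proteins that fix the pupal case to its support. The steroid hormone ecdysone shuts the glue genes down at the end of larval life and turns on puffs with other secreted products, among them the late genes of the 71E puff.

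Each value is the authors' deposited log ratio of a probe on an array, read here as log2, for 14569 probes. The base is an assumption, and the labels do not say which sample is the numerator, so the signs here are those of the deposited values. A negative ratio may be one with less transcript on the cleaved side. The ecdysone receptor gene EcR is known from other work to be lower in cohesin-mutant fly neurons and was negative here on all 3 arrays. That is a single gene, known from another cell type, and it did not pass the test below, so the direction stays an assumption. Log ratios hold no levels, so neither the tissue label nor the presence of a marker gene could be checked, and the Rad21 gene was not among the measured genes. The array medians were −0.06 on 1.1, 0.04 on 1.2 and 0.06 on 1.3. Cleaved samples were labelled with Cy5 on 1.1 and 1.2 and with Cy3 on 1.3, so among these 3 arrays the opposite orientation is a single array. The orientation is that of the channel labels. The design text counts 3 and 4 arrays the other way round over the series, and the dye term below rests on the channel labels.

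Arrays 1.1 and 1.2, of the same dye orientation, correlated at 0.587 across all probes (Pearson's r, Spearman's rho 0.459), and 63.2% of probes had the same sign on both. Array 1.3 correlated at 0.225 with 1.1 and at 0.260 with 1.2, with rho of 0.135 and 0.201. Its probes had the sign of 1.1 in 54.3% of cases and the sign of 1.2 in 56.4%. These are descriptions over probes of the same 3 arrays, and probes are not independent replicates. Ratios beyond 1 in size were shared more closely. Arrays 1.1 and 1.2 both exceeded 1 in size at 479 probes and had the same sign at 464 of them (96.9%).

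**Figure D1:**
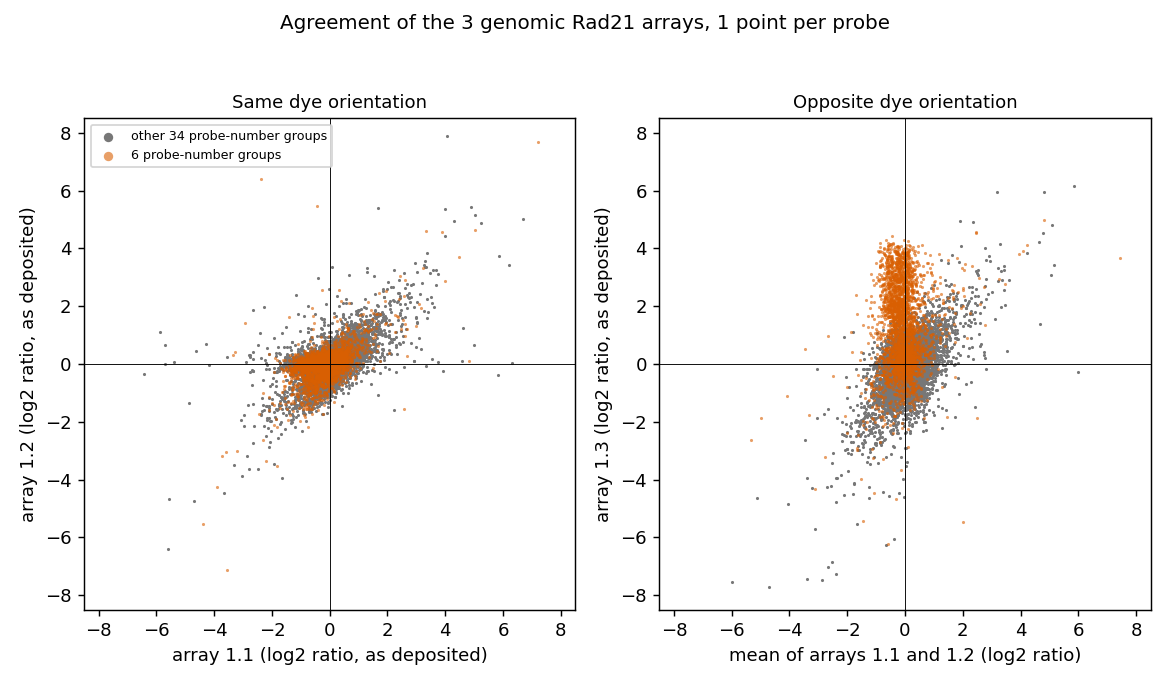
Deposited log2 ratios, 1 point per probe: array 1.2 against array 1.1 on the left, and array 1.3 against the mean of 1.1 and 1.2 on the right, with the probes of the 6 probe-number groups in orange. On the left the colours lie along the same diagonal, and on the right the orange points form a column that reaches above 4 on array 1.3 while lying near 0 on the other arrays.

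Array 1.3 was raised in 6 groups of probes. Grouped by digits 11 and 12 of the probe number, the groups 01, 08, 09, 11, 18 and 19 hold 3094 probes, or 21.2% of the array. On array 1.3 their medians were 1.47, 0.49, 1.87, 0.52, 1.61 and 2.48, while the medians of the other 34 groups lay between −0.09 and 0.11. On 1.1 the medians of the same 6 groups lay between −0.32 and −0.03, and on 1.2 between −0.08 and 0.14. Of the probes inside the 6 groups, 51.6% were above 1 on array 1.3, against 3.63% of the probes outside them. The 6 groups had been named beforehand because they were raised on array 1.3. These contrasts, and the agreement of 1.3 with and without the groups below, therefore follow in part from that choice. The sources used here do not say what the digits stand for.

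Without these groups, 1.3 correlated at 0.543 with 1.1 and at 0.438 with 1.2, over 11475 probes, while 1.1 and 1.2 stayed at 0.593. Inside the groups 1.3 correlated at −0.01 with 1.1 and at 0.176 with 1.2, while 1.1 and 1.2 correlated at 0.569. Centring each group on its own median on each array brought 1.3 only to 0.339 with 1.1 and to 0.334 with 1.2.

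**Figure D2:**
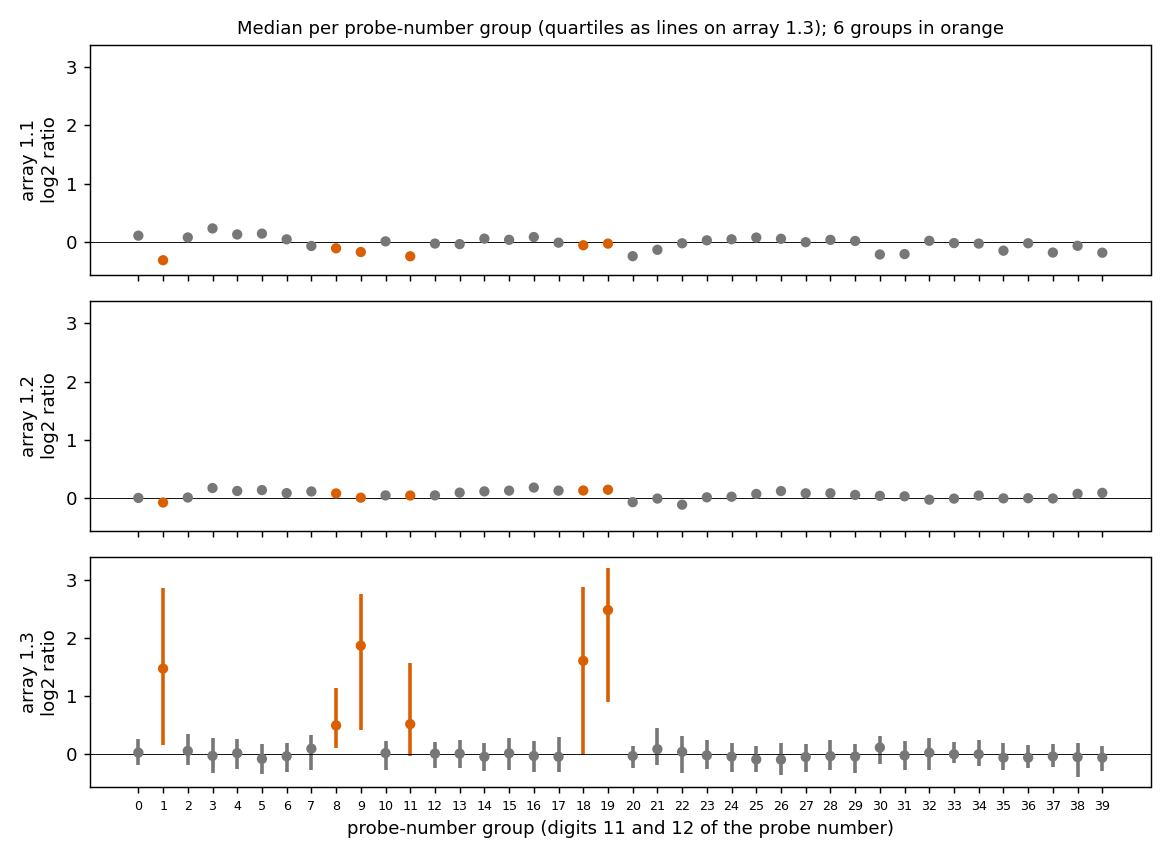
Median log2 ratio of each of the 40 probe-number groups on arrays 1.1, 1.2 and 1.3, with lines for the quartiles on 1.3. The 6 groups in orange stand between 0.49 and 2.48 on array 1.3, and no group leaves the range from −0.32 to 0.23 on the other arrays.

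Counted over probes, the rise inside the groups was uneven among kinds of genes. Cytochrome P450 genes, which code for enzymes of hormone and toxin metabolism, had a median of 1.73 on array 1.3 for the 16 probes inside the groups and of 0.25 for the 68 outside. Genes for cuticle proteins had 1.51 for 31 probes inside and 0.01 for 84 outside. Genes for cytosolic ribosomal proteins had −0.94 for 14 probes inside and −0.57 for 32 outside, and 4 of the 14 were above 1. Translation initiation factor genes had −0.27 for 42 probes inside and −0.40 for 127 outside. The ribosomal and initiation factor lists hold only 33 and 40 measured genes, so genes with several probes weigh more in these medians. By gene, the initiation factor median on 1.3 was −0.11 over all 40 genes and −0.32 over the 29 with a probe outside. Each of these lists held probes above 1 inside the groups.

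Strong ratios of 1.1 and 1.2 carried over to 1.3 outside the groups. At 130 probes outside them both 1.1 and 1.2 were below −1, and 1.3 was negative at 128 (98.5%) and below −1 at 112. At 237 probes both were above 1, and 1.3 was positive at 223 (94.1%) and above 1 at 146. Inside the groups, where 20.9% of all probes were negative on 1.3, 41 probes were below −1 on both 1.1 and 1.2. Array 1.3 was negative at 23 of these (56.1%) and above 1 at 12. Of the 56 probes above 1 on both inside the groups, 55 were positive on 1.3 and 47 were above 1. Over all probes, 131 were below −1 on all 3 arrays (0.899%) and 193 were above 1 on all 3 (1.32%).

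The genomic set was tested with limma on all 7 arrays, with an effect for each set and a dye effect for each probe. At a Benjamini-Hochberg adjusted p under 0.05, 97 of 14569 probes passed (0.666%), of which 44 were negative (0.302%) and 53 positive (0.364%). All 97 had the same sign on 1.1, 1.2 and 1.3, against 37.0% of all probes, and 95 were beyond 1 in size on all 3. The median SD of a called probe over the 3 arrays was 0.39, against a median estimate of 2.46 in size. The call itself favours probes that are large and even on these arrays, so these values are no separate support for it. The smallest estimate called was 1.32, at a probe with an SE of 0.20. The median SE over all probes was 0.31, so with 3 pairs a probe at the median SE needed a larger estimate to pass. Of the called probes, 20 (20.6%) lay in the 6 groups, against 21.2% of all probes. Without array 1.1 or without array 1.3 no probe passed limma's test. In these fits 1178 and 781 probes had an unadjusted p under 0.05, where 728 are expected if no probe differs. Without array 1.2, 14 passed. With each array centred on its median, 115 probes passed and the split turned to 66 negative and 49 positive, and with each probe group centred, 174 passed, 107 negative and 67 positive.

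Among negative genes the lead was Sgs1 on chromosome arm 2L, a gene for a glue protein. Its ratios were −5.61 on 1.1, −6.40 on 1.2 and −7.55 on 1.3, with an estimate of −6.72 ± 0.45 (SE, limma adjusted p = 0.00314). Estimates and SEs here and below come from the fit on all 7 arrays, whose spread is shared by both sets. With the 3 genomic arrays alone, the limma adjusted p of Sgs1 was 0.0525. Its next neighbour among the measured genes, hoe2, had −3.02, −3.88 and −2.65. Eig71Eg, a late gene of the 71E puff on 3L, had −4.68, −4.73 and −7.73, an estimate of −5.91 ± 0.73 (limma adjusted p = 0.0256). Here and below, fewer cells of a type and less RNA per cell cannot be told apart.

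Zip88E, of the ZIP family of zinc transporters, had −3.65 on 1.1, −4.46 on 1.2 and −4.85 on 1.3 (limma adjusted p = 0.00314). Cln3, a lysosomal membrane protein whose human counterpart is mutated in Batten disease, had −3.30, −3.50 and −3.96 (limma adjusted p = 0.00466). Their SDs over the 3 arrays were 0.61 and 0.34, against a median of 0.39 for called probes. Prosap, the fly Shank scaffold of synapses, was less even, with −3.91 on 1.1, −4.25 on 1.2 and −1.11 on 1.3, where its probe lies in a raised group. The other members of the 12 most negative genes were CG10237, CG31698, CG15404, Pcif1, CG9040 and dmGlut. Their estimates lay between −5.08 and −2.79, and each was below −1 on all 3 arrays.

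Among positive genes, nol on 3L had 6.68 on 1.1, 5.01 on 1.2 and 6.16 on 1.3, the highest estimate at 6.45 ± 0.98 (limma adjusted p = 0.0488). Mst87F, known as a gene of the male germ line, had 7.21, 7.70 and 3.67. Its probe lies in a raised group, yet its ratio on 1.3 was the lowest of the 3. CG14062 had 5.03, 4.62 and 4.97, with an SD of 0.22. Genes for small secreted binding proteins were in this set as well. Npc2e, of the NPC2 family of sterol-binding proteins, had 5.23, 4.90 and 3.09 (estimate 4.18 ± 0.31, limma adjusted p = 0.00466). Obp99d, of the odorant-binding protein family, had 3.89, 4.57 and 4.13 (limma adjusted p = 0.00692).

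Windbeutel (wbl), a chaperone of the endoplasmic reticulum needed in the egg chamber for dorsoventral patterning, had 3.34 on 1.1, 4.59 on 1.2 and 3.80 on 1.3 (estimate 4.00 ± 0.32, limma adjusted p = 0.0055). The gene yip3 had 4.01, 4.42 and 3.84. The chitin-binding family member obst-H had 4.90, 5.42 and 3.42 at its called probe, but 0.52, 0.43 and 0.31 at its second probe, which did not pass. The remaining members of the 12 most positive genes, CG13946, CG12546, CG14434 and CG9928, had estimates between 3.42 and 5.51 and were above 1 on all 3 arrays.

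**Figure D3:**
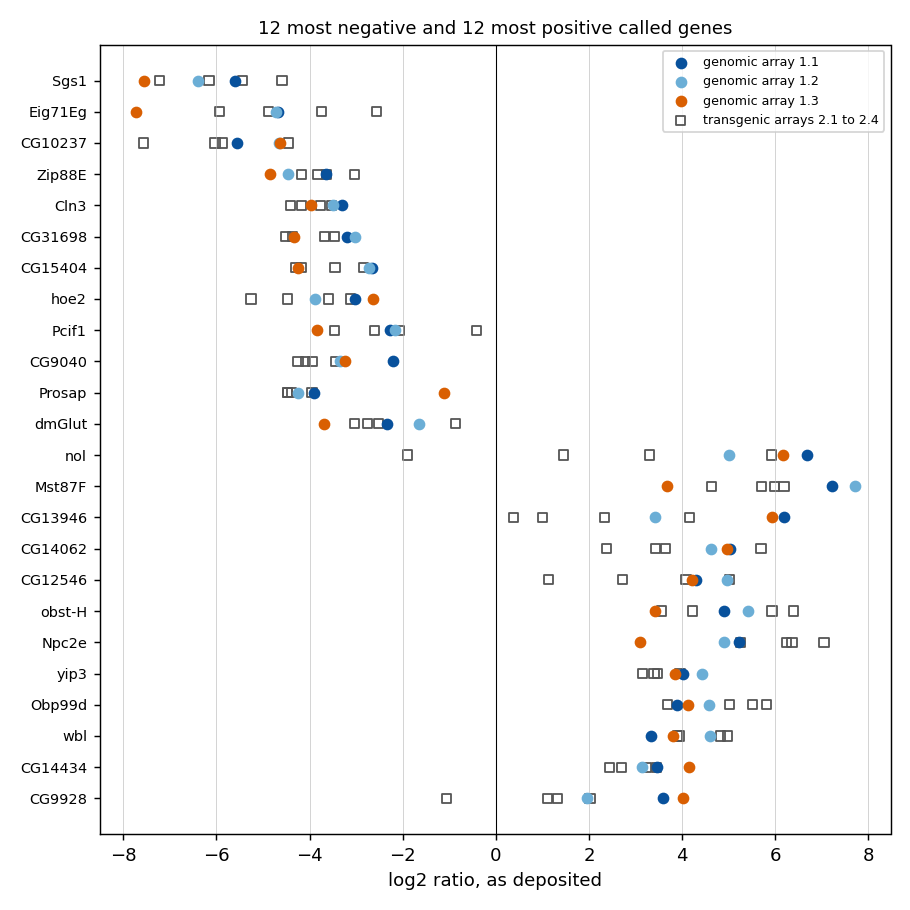
Log2 ratios of the 12 most negative and 12 most positive called genes on genomic arrays 1.1, 1.2 and 1.3 (filled circles) and transgenic arrays 2.1 to 2.4 (open squares). All 3 genomic values lie on the same side of 0 for each gene, as the choice of genes required, with Prosap and Mst87F nearer to 0 on array 1.3.

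The called probes stood for 86 named genes. Those described next were picked after their values were seen. Some act on chromatin and transcription. The nuclear receptor gene Hr78 had −1.55 on 1.1, −1.38 on 1.2 and −2.12 on 1.3. Corto, a chromatin protein that interacts with Polycomb and trithorax group proteins, had −3.58, −3.04 and −1.76. Taranis (tara), known for roles in growth, cell cycle control and sleep, was called at both of its probes, with estimates of −2.11 and −1.83. U-shaped (ush), a cofactor that binds GATA factors, was positive at 3.22, 3.31 and 2.94, the same direction on each array, with an estimate of 3.06 ± 0.25.

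Further called genes are known from metabolism and transport. Galk, a galactokinase, had an estimate of −2.71, the ethanolamine kinase gene eas −2.46, and the phosphate transporter-like gene Picot −2.54. Positive estimates were found for both malic enzyme genes, Men at 2.49 and Men-b at 2.07, for whd, a carnitine palmitoyltransferase, at 1.97, and for PIG-S, which takes part in attaching GPI anchors, at 3.25. The phosphate transporter NaPi-III had 2.96 on 1.1, 3.51 on 1.2 and 2.87 on 1.3. Traf4, an adaptor of TNF receptor signalling, and comm2, related to the axon guidance gene comm, had estimates of −2.38 and −2.35. Arc2, a relative of a retrotransposon capsid gene, had 2.66, and Teh1, related to a sodium channel subunit, had 2.47.

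Averaging the probes of a gene gave 11610 genes, of which 104 passed (0.896%), 48 negative (0.413%) and 56 positive (0.482%). Of all genes, 16.6% were negative on all 3 arrays and 21% were positive on all 3, and 1362 (11.7%) had an unadjusted p under 0.05. The counts of the gene lists below are to be read against these shares, and the values below are means over the probes of a gene.

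The late genes of the 71E puff set array 1.2 apart from the other arrays. Of 8 measured members, only Eig71Eg passed. Eig71Ef had −6.43 on 1.1 and −7.44 on 1.3 but −0.34 on 1.2. Eig71Ed had −5.69 and −6.85 on these arrays, and 0.65 on 1.2. Eig71Ea had −3.54 and −5.55, with 0.26 on 1.2, and Eig71Eh had −2.25 and −2.08, with 0.15 on 1.2. Only Eig71Eg was strongly negative on array 1.2, at −4.73. The list medians were −2.95 on 1.1, 0.13 on 1.2 and −3.82 on 1.3. Eig71Ei and Eig71Ek were negative on 1.1, at −2.36 and −1.36, and positive on 1.3, at 0.76 and 1.79, and the probe of Eig71Ek lies in a raised group. Eig71Ej stayed between −0.89 and −0.10 on the 3 arrays.

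The glue and intermoult genes had ratios of both signs, and for the new glue genes array 1.2 was again nearest to 0. Of 9 measured members, Sgs1 passed. The new glue genes ng1, ng2 and ng3, small genes of the intermoult period, were positive on all 3 arrays. ng1 had 4.83 on 1.1, 0.10 on 1.2 and 4.58 on 1.3, ng2 had 4.62, 1.23 and 3.56, and ng3 had 2.97, 0.59 and 2.09. None of the 3 passed, with limma adjusted p between 0.267 and 0.619. The other member of this group, ng4, had 0.91, 0.06 and 0.52. The glue genes Sgs4, Sgs5 and Sgs5bis lay between −0.19 and 0.43 on 1.1 and 1.2 and between −2.58 and −1.28 on 1.3. Eig71Ee, a 71E gene active together with the glue genes, had 0.32, −0.41 and −1.32. The gland's own prolyl 4-hydroxylase genes PH4alphaSG1 and PH4alphaSG2 were also positive on all 3 arrays and lowest on 1.2. PH4alphaSG1 had 2.18 on 1.1 and 0.86 on 1.2, and PH4alphaSG2 had 2.29 on 1.1 and 2.24 on 1.3. Their estimates were 1.99 ± 0.47 and 2.05 ± 0.52, and neither passed.

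None of the 14 measured ecdysone regulators passed limma's test, 5 had an unadjusted p under 0.05 (35.7%, against 11.7% of all genes), and 3 of the 14 were negative on all 3 arrays. EcR had −0.98 on 1.1, −1.46 on 1.2 and −1.96 on 1.3, an estimate of −1.50 ± 0.25 with a limma adjusted p of 0.0501 over genes and 0.0563 over probes. The values did not overlap 0, and the gene stood just outside the threshold. Broad (br), an early puff gene for zinc finger factors, had −0.59, −0.51 and −0.83 as the mean of 6 probes. The probes differed, from −1.34, −1.37 and −1.76 at the most negative to 0.03, −0.04 and −0.15 at the one nearest to 0, which lies in a raised group. The circadian and ecdysone-responsive gene vri had −0.68, −1.23 and −1.42. Eip78C, a nuclear receptor gene of an early puff, had the order of the 71E genes, with −2.79, 0.31 and −4.62. Positive on all 3 were ftz-f1, a nuclear receptor of the prepupal period, at 0.79, 0.81 and 1.11, and usp, the partner of EcR, at 0.37, 0.30 and 0.32. Of the remaining members, Hr39, Eip93F, E23 and Hr4 were negative on 1.1 and 1.3 and positive on 1.2. Hr3, Hr38, Kr-h1 and Cyp18a1 lay between −0.68 and 1.14 with mixed signs.

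Of 9 other ecdysone-induced genes, none passed, 2 had an unadjusted p under 0.05, and the members scattered. Eip63E had −1.92 on 1.1, 0.89 on 1.2 and −2.34 on 1.3. ImpE2 had −4.63 on 1.1 only, with 0.44 and 0.93 on the others. ImpE3 was the even one, with 0.90, 0.97 and 0.79. ImpE1, ImpL1, ImpL2, Edg78E and Edg84A lay between −1.29 and 0.31, and Edg91 had 2.56 on 1.3, where its probe lies in a raised group.

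Over all probes outside the 6 groups, array 1.2 was the one that most often stayed near 0 where the other 2 arrays were beyond 1. Of 198 probes below −1 on 1.1 and 1.3, 39 lay within 0.5 of 0 on 1.2 (19.7%), and of 256 above 1 on both, 55 did (21.5%). Of the 174 below −1 on 1.2 and 1.3, 20 were within 0.5 of 0 on 1.1 (11.5%), and of 156 above 1, only 1 was. Of the 130 below −1 on 1.1 and 1.2, 3 were within 0.5 of 0 on 1.3 (2.31%), but of 237 above 1, 43 were (18.1%). Array 1.2 also had the narrowest spread, with 5.86% of these probes beyond 1 in size, against 8.44% on 1.1 and 10.2% on 1.3, and a fixed limit of 0.5 favours such an array. So the 3 pairs of samples did not share all of their strong ratios.

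**Figure D4:**
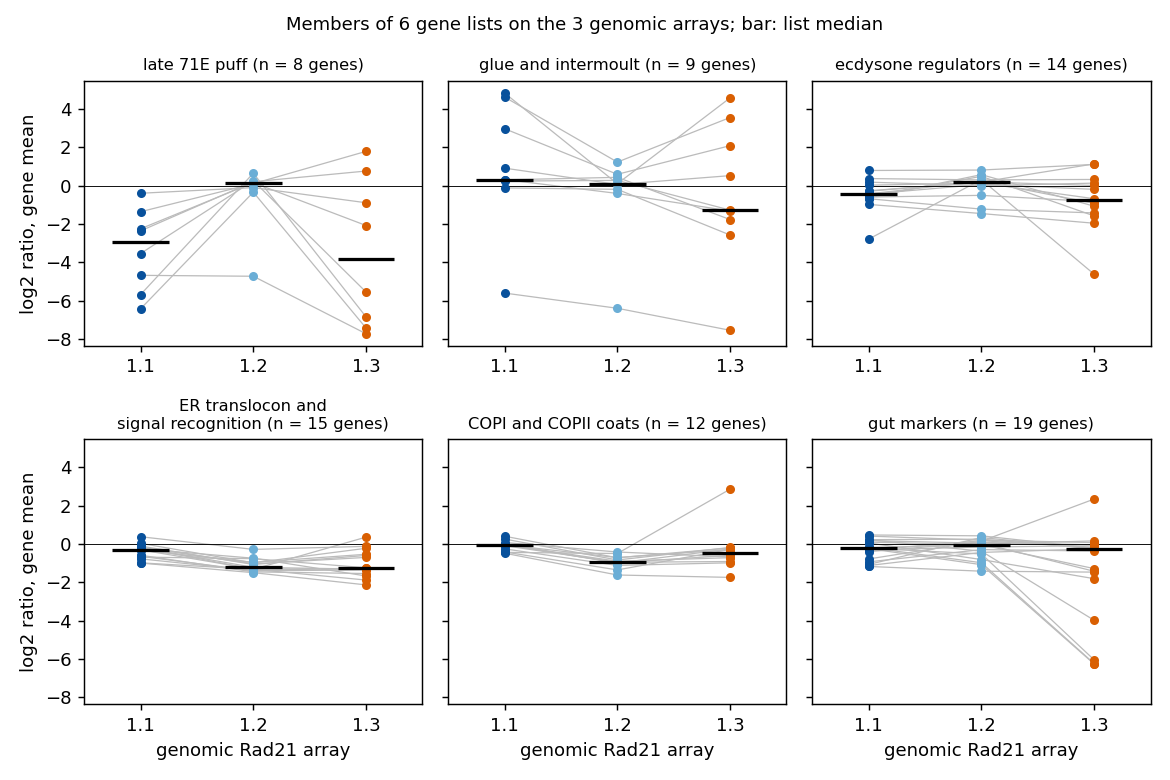
Log2 ratios of the measured members of 6 gene lists on arrays 1.1, 1.2 and 1.3, with grey lines joining the values of a gene and black bars at the list median. The 71E genes sit near 0 on array 1.2 except Eig71Eg, and 4 gut markers lie below −3 on array 1.3.

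Genes of the entry into the secretory pathway were mostly negative, with list medians nearest to 0 on array 1.1. In glands these proteins pass the glue into the endoplasmic reticulum. The individual genes in this paragraph and the next 2 were picked after their values were seen. Of 15 measured genes of the translocon and signal recognition, none passed limma's test, 9 had an unadjusted p under 0.05, all negative, and 12 (80.0%) were negative on all 3 arrays, against 16.6% of all genes. The list medians were −0.30 on 1.1, −1.22 on 1.2 and −1.24 on 1.3. Sec61alpha, the channel subunit, had −0.30, −1.30 and −1.31. Srp14, of the signal recognition particle, had −0.99, −1.49 and −2.13, and the signal peptidase subunit Spase12 had −0.98, −1.32 and −1.88. Of 12 measured genes of the COPI and COPII coats, which carry vesicles between the endoplasmic reticulum and the Golgi, none passed, 2 had an unadjusted p under 0.05, and 8 (66.7%) were negative on all 3. epsilonCOP had −0.48, −1.61 and −1.74. The other 4 were zetaCOP, Sec31 and Sec24CD, which were positive on 1.1 at 0.08, 0.41 and 0.26, and Sec13, which had 2.87 on 1.3, where its probe lies in a raised group.

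Median estimates nearer to 0, between −0.21 and −0.14, were seen in the lists of the cell's basic machinery given next, none of which held a called gene. The translocon and coat lists had −0.91 and −0.47. On single arrays the order of the medians differed. Of 68 mitochondrial ribosomal protein genes, 32 (47.1%) were negative on all 3 arrays, but 4 (5.88%) had an unadjusted p under 0.05, a share below that of all genes. Of 29 genes of the V-ATPase, the proton pump of acidic compartments, 12 (41.4%) were negative on all 3 and 9 had an unadjusted p under 0.05. Of 69 genes of oxidative phosphorylation, 24 (34.8%) were negative on all 3 and 11 had an unadjusted p under 0.05. Genes for cytosolic ribosomal proteins and the proteasome, the cell's protein-degrading complex, differed between arrays. Their medians were 0.16 and 0.22 on 1.1, 0.01 and 0.07 on 1.2, and −0.77 and −0.62 on 1.3, with 1 and 3 members at an unadjusted p under 0.05. Outside the raised groups, their medians on 1.3 were −0.60 and −0.70.

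Genes of antimicrobial peptides and of bacterial recognition spread widely between arrays. Of 19 measured, none passed and 6 had an unadjusted p under 0.05. In the family of the antifungal peptide drosomycin, Drsl5 had −4.87 on 1.1, −1.34 on 1.2 and −5.71 on 1.3, Drsl1 had −2.08, −2.69 and −3.96, and Drs itself had −1.05, −1.25 and −1.69. PGRP-SB2, a peptidoglycan recognition gene, had −2.39 on 1.1 and −5.47 on 1.3 but 6.41 on 1.2. The antibacterial peptide genes Def and AttD had 4.99 and 4.60 on 1.1 only, and stayed between −0.16 and 0.65 on the other arrays. At Def and AttD a single array thus held the high ratio. Of 81 cytochrome P450 genes, 27 were positive and 14 negative on all 3 arrays, 14 positive and 7 negative genes had an unadjusted p under 0.05, and the median estimate was 0.21. The 2 that passed were negative, Cyp4e2 at −1.46 ± 0.22 and Cyp6g1, known for insecticide resistance, at −1.76 ± 0.28.

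Array 1.3 stood apart at single genes outside the raised groups as well. Among genes whose ratios on 1.1 and 1.2 had the same sign and lay within 1 of each other, the 6 with the largest distance of 1.3 from their mean were all more negative on 1.3. Jon65Aiii and Jon65Aiv, genes for digestive proteases of the Jonah family, had −6.04 and −6.26 on 1.3, against −0.22 and −0.24 on 1.1 and −0.51 and −1.07 on 1.2. The protease gene yip7 had −0.34, −0.77 and −4.57. CG7953 had −0.01, −0.43 and −4.47, and CG15818 had 0.03, 0.07 and −3.54. The sixth was Eig71Eg. Of 19 measured gut markers, 8 were below −1 on 1.3 and 4 below −3, namely Jon65Aiii, Jon65Aiv, gammaTry and epsilonTry, while Jon99Ci had 2.35, and the list median was −0.25. On 1.1 and 1.2 the lowest gut markers were at −1.17 and −1.42, and the medians were −0.22 and −0.03. Low gut markers were not limited to 1.3, since on transgenic array 2.1 14 of the 19 were below −1, with a median of −1.83. Jonah and trypsin genes are close copies of each other, and cross-hybridisation was not checked. Whether gut tissue in a dissected sample has a part in these values was not tested. None of the 19 gut markers passed, and 2 had an unadjusted p under 0.05.

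Inside the raised groups the 6 genes farthest out by the same rule were gammaTry, at −0.17, −0.97 and −6.24, and 5 genes with ratios between 3.90 and 4.18 on 1.3 only. These were gammaTub37C, a tubulin of the female germ line, tHMG2, an HMG-box protein of the testis, Klp59C, a kinesin of cell division, Cpr78Cc, a cuticle protein, and CG43707. On 1.1 and 1.2 they lay between −1.28 and −0.19. CG43707 has a second probe outside the groups, and that probe had −0.10, −0.15 and 0.20.

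Other tissue markers had ratios of both signs. Of 9 fat body markers, 3 were below −1 and 3 above 1 on 1.3, from −2.96 for Fbp1 to 3.04 for Yp1, and the probes of both lie in raised groups. Of 14 hemocyte markers, ush alone passed, and 4 were above 1 on 1.3. The 10 muscle markers lay between −1.75 and 1.41 on the 3 arrays. Their part in the results was not tested.

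Cohesin's own genes did not pass. Of 11 measured subunits and regulators, 1 had an unadjusted p under 0.05 and 1 was negative on all 3 arrays. SMC1 had 0.26 on 1.1, −0.15 on 1.2 and −0.56 on 1.3, SA1 had 0.42, 0.35 and −0.14, and Nipped-B, the loader, had −0.43, 0.13 and −0.04. SMC3, dmt and Mau2 had 2.57, 2.06 and 2.15 on 1.3, against −0.40, 0.20 and −0.23 on 1.1 and −0.41, −0.20 and −0.24 on 1.2. The probes of these 3 lie in raised groups. The releasing factor wapl and the others, pds5, eco, san and Sse, lay between −0.60 and 0.53.

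All samples were heat-shocked, and the heat shock genes were read 10 to 12 h later. Whether the shock itself differed within a pair was not tested. Of 21 listed genes 10 were measured, none passed and 3 had an unadjusted p under 0.05. On all 3 arrays 4 (40%) were negative and 2 (20%) positive, against 16.6% and 21% of all genes. Hsp70Ab had −0.68 on 1.1, −0.59 on 1.2 and −0.90 on 1.3, and Hsp70Ba had −0.32, −0.52 and −0.24. These are near-identical copies, and cross-hybridisation was not checked. Hsc70-4, a constitutive chaperone, had 1.27, 1.02 and 0.77, an estimate of 1.03 ± 0.26 with a limma adjusted p of 0.168.

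No probe passed the test of the difference between the 2 kinds of intact control. In the same fit, 555 probes of the transgenic set passed (3.81%), and 85 of the 97 called probes of the genomic set were among them. Of the 97, 91 had the same sign on all 7 arrays. The share of all probes with the same sign on all 7 was not computed, and the shared fit favours probes that are even on the transgenic arrays too. The difference between the sets, genomic minus transgenic, passed limma's test at 0 of 14569 probes (0%), and the smallest adjusted p was 0.173. An unadjusted p under 0.05 was found at 621 probes, fewer than the 728 that this threshold gives if no probe differs. The median SE of the difference was 0.41, and differences as large as 3.63 ± 0.34 did not pass, so the test could miss large differences. Across the sets, over all probes, the correlations of single arrays lay between −0.04 for 1.3 with 2.3 and 0.524 for 1.2 with 2.2.

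The values behind the largest differences are given as a description, since none passed. The smallest adjusted p was that of a probe with no gene symbol, which had 5.02 on 1.1, 5.15 on 1.2 and 4.81 on 1.3, against 1.45, 1.15, 0.95 and 1.87 on the transgenic arrays, a difference of 3.63 ± 0.34. The genes described next are the 5 with the largest moderated t in each direction. Kat60, a subunit of the microtubule-severing enzyme katanin on 3R, had −1.87 on 1.1, −1.92 on 1.2 and −2.48 on 1.3, against 0.07, −0.14, 0.29 and −0.04 on the transgenic arrays. It passed in the genomic set (limma adjusted p = 0.0156), and its difference was −2.16 ± 0.31 (limma adjusted p = 0.736). The 2 sets did not overlap at Kat60 or at the other genes picked by this rule, and the rule favours such genes. The share of all probes without overlap was not counted. smp-30 was also called in the genomic set, with 2.04, 1.13 and 2.76, against −0.53, −0.53, 0.12 and 0.82 on the transgenic arrays. CG2233 had −2.09, −1.89 and −3.07, against −0.24, −0.76, −0.49 and −0.74. CG15741 had −1.91, −3.45 and −1.57, against 0.33, 0.98, 0.63 and 2.88, a difference of −3.33 ± 0.63.

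CG6865 was negative in both sets but less so in the genomic one, with −0.62, −0.84 and −0.63, against −3.06, −2.47, −2.66 and −2.67 on the transgenic arrays. BOD1, CG14143 and CG10814 were likewise higher in the genomic set, by 1.37 ± 0.27, 2.51 ± 0.49 and 3.14 ± 0.67. Npc2e and CG13159 were lower in it, with differences of −2.05 ± 0.41 and −2.05 ± 0.35. The limma adjusted p of the difference was 0.736 for Kat60 and CG6865 and higher for the other 8 genes.

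**Figure D5:**
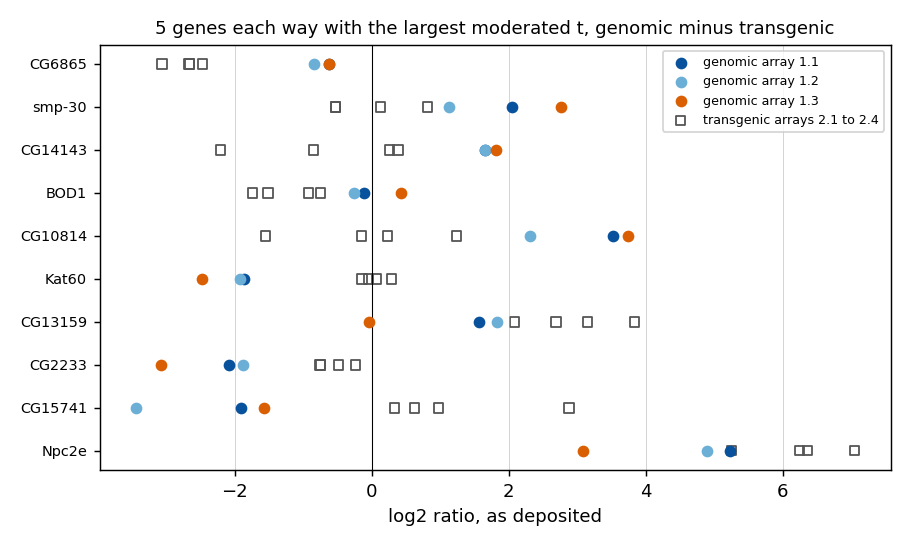
Log2 ratios of the 5 genes in each direction with the largest moderated t for genomic minus transgenic, on genomic arrays 1.1, 1.2 and 1.3 (filled circles) and transgenic arrays 2.1 to 2.4 (open squares). The sets do not overlap for any of these genes, which were picked by this same difference, and no difference passed the test over all probes.

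The genes of the late 71E puff and the new glue genes varied among the transgenic pairs too. The 71E medians there were −1.53, −3.14, −0.69 and −2.89 on arrays 2.1 to 2.4, next to −2.95, 0.13 and −3.82 on the genomic arrays. For ng1, the genomic estimate was 3.56 ± 2.07, and the transgenic arrays had 0.24, −4.74, −5.42 and 5.85.

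Called genes lay on every large chromosome arm. On X they were 16 of 1801 measured genes (0.888%), on 2L 25 of 2160 (1.16%), on 2R 22 of 2371 (0.928%), on 3L 15 of 2256 (0.665%) and on 3R 26 of 2905 (0.895%), and on chromosome 4 none of 62. Of the called genes, 6 pairs were next to each other in the order of measured genes, and both members had the same sign in all 6. How many such pairs calls placed at random would give was not computed. The 6 pairs were CG13946 with CG13947, CG31698 with CG15404, hoe2 with Sgs1, CG30196 with CG43325, NaPi-III with nol, and CG40486 with CG40485. CG40485 was called at both of its probes, with 3.32, 3.37 and 2.92 at the first and 3.29, 3.56 and 3.24 at the second. CG40486 had 3.27, 3.41 and 3.22. Genes that lie side by side can be related copies, and whether their probes cross-hybridise was not checked.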

How the data were processed

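Total RNA of 7 pairs of salivary gland samples was hybridised to two-colour INDAC FL003 arrays. The authors' deposited log2 ratios were used as they stand, with no array turned or centred. The sources used here give no log base, background correction, normalization, numerator or genome build. The ratios were assumed to run in one direction already. Probes were named through the platform annotation and the RefSeq gene table (12658 probes with 1 symbol, 11610 genes, 96 with several, 1815 with none).

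Each probe was fitted with limma 3.58.1 in R 4.3.3 over all 7 arrays, with an effect for each set and a dye term. The fit left 4 residual degrees of freedom, and no dye effect passed. An adjusted p under 0.05 (Benjamini-Hochberg over 14569 probes) was called. Gene lists used means over probes. The fit was tested on simulated data. Named genes were the 12 most negative and 12 most positive called genes, 6 inside and 6 outside the raised probe groups where 1.3 lay farthest from the mean of 1.1 and 1.2 (these of the same sign and within 1 of each other), 5 each way for the difference between sets, called list members, and all members of the ecdysone, 71E, glue and cohesin lists. The arrays, rules and lists were chosen with earlier results of these data known. The number of arrays limits the precision. Alternatives changed the dye term, centring, scaling, probe groups, weights, thresholds and arrays left out.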

Additional observations from a re-analysis of the deposited data

Results flagged for a closer look

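In the set with the transgenic control, array 2.4 lay apart from the other 3 at Prosap, with −3.95, against −4.47, −4.39 and −4.47 on 2.1, 2.2 and 2.3. On genomic arrays 1.1, 1.2 and 1.3 the gene had −3.91, −4.25 and −1.11. At CG43707, array 2.1 lay apart with 6.50, against −1.30, −2.56 and −2.34 on 2.2, 2.3 and 2.4, and the genomic arrays had −0.94, −0.24 and 4.10. Of 44 named genes tested for a distant sample among the 4 transgenic arrays, these were the 2 found, and chance gives about 1 in 20.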

How the results depend on the processing

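The count of called probes in the genomic set was 97. It lay between 43 and 172 when a transgenic array was left out, and between 0 and 14 when a genomic array was. Leave-one-out counts thus ran from 0 to 172. It came to 115 without the dye term and with arrays centred on their medians, 615 with arrays centred and scaled, 174 with probe groups centred, 144 of 11475 without the 6 probe groups, 839 with array weights (array 1.2 had a weight of 19.9) and 19 at an adjusted p under 0.01. An alternative added after the data were seen, without the 6 groups and with arrays centred, gave 191. The 3 genomic arrays alone gave 13 calls, 12 of them among the 97. With a dye term these arrays leave 1 residual degree of freedom and gave 2781 calls, 816 negative and 1965 positive, and 1440 of them (51.8%) lay in the 6 groups. The difference between sets had 1 call without the dye term and 1 with array weights, and 0 under the other alternatives run. The 24 leading genes kept their sign under each alternative run for single genes, which left out scaling and array weights. They were chosen for the same sign on all 3 genomic arrays. That choice fixes the sign without the dye term and with the 3 arrays alone. All 24 missed the threshold without 1.1 or without 1.3, 17 without 1.2 and 18 with the 3 arrays alone. The agreement of 1.1 and 1.3 was 0.225, and 0.543 without the 6 groups. No paired analysis was possible because the sets share no replicate number.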
